A study of Rattus norvegicus with 20 samples.

Results

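The CREB and ATF transcription factors were examined through 10 genes, Creb3l1, Creb1, Creb3, Creb3l2, Creb5, Atf1, Atf2, Atf3, Atf4 and Crem, in the hypothalamic arcuate nucleus of 20 female Sprague-Dawley rats on postnatal day 15. Their 17 probes were found by gene name among the 30367 probes of a 2-colour rat array that are not controls, and 15 of these probes, covering all 10 of the 17086 genes kept, passed the filter on dim spots. The set was selected on measured values of these samples, since Creb3l1 was picked for its higher level in BYP than in BNS rats, with no threshold given. That contrast is therefore described without a test for all 10 genes. Creb3l1 itself was tested only between conditions that the choice did not use.

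The rats fell into 5 conditions of 4 animals. On gestational day 15 the dams of SNS rats were injected with saline, and those of all other conditions with betamethasone, a synthetic glucocorticoid, in 2 injections at 0.4 mg/kg each. SNS and BNS rats had no spasms and received saline after birth. BYS, BYA and BYP rats were given NMDA, a glutamate receptor agonist that triggers spasms at this age, on postnatal days 12, 13 and 15. By the labels they were treated on postnatal days 13, 14 and 15, before NMDA, with saline (BYS), with ACTH, the pituitary hormone that drives the adrenal cortex (BYA), or with PMX53, an antagonist of the complement receptor C5ar1 (BYP). The published methods place the first treatment earlier, once the spasms of the first NMDA injection had ended, and the sources do not settle which holds. All groups are of 1 strain and 1 sex, litters were culled to 4 females, and the labels do not say which rats were littermates, so p-values measure the spread between these samples.

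CREB and ATF proteins are basic leucine zipper factors that bind DNA as dimers, many of them at the cAMP response element. Creb1, Atf1 and Crem are phosphorylated after rises in cAMP or calcium, Atf2 and Creb5 answer to stress-activated kinases, and Creb3, Creb3l1 and Creb3l2 are held in the membrane of the endoplasmic reticulum until they are cut in the Golgi. Atf4 is made when phosphorylation of eIF2alpha slows general translation, and Atf3 is a gene that cells switch on quickly under stress or strong activity. In hypothalamic neurons, factors of this family link synaptic activity and hormone signals to the transcription of neuropeptide genes.

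Each level below is the log2 of a normalized intensity, 1 unit being a doubling, and it is compared between samples for the same gene but not between genes. Among the 20 rats, none shared a slide with a rat of another condition, and only BYA spanned 2 slides, with BYA 3 by itself on the second, so slide and condition cannot be told apart. On 9 of the 11 arrays both channels held rats of the same condition, with replicates 1 and 2 on one array and 3 and 4 on the other. The arrays of BYA 3 and BYA 4 also carried males, named as SNS, of another series, which were not analysed here. For BYA 3 the label names Cy3, whereas its raw data name lists the animals in an order that does not match, so which animal that channel holds is uncertain. No Y-linked gene was matched to a probe under its own symbol, so the sex of that channel was not checked. Of the 8 arcuate markers examined, among them Agrp, Npy and Pomc, each was detected above background in every one of the 20 samples. Of the 6 pituitary genes, Lhb was so in 20 samples, Cga in 15, Pou1f1 in 8, Tshb in 2, Gh1 in 1 and Prl in 0. The 2 that were kept were not called in any comparison with SNS. Of the 8 arcuate markers, 2 were called lower in BYS than in SNS, where 27.1% of all genes were called. None of the 8 was called between BNS, BYA or BYP and SNS. The share of spots well above background was lowest in SNS (51.5% to 74.9%) and BYA (55.1% to 71.2%), followed by BYP (61.6% to 75.2%), BNS (67.7% to 81.2%) and BYS (72.8% to 84.5%).

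The probes of Crem, Creb1 and Atf4 are shown because the clearest differences rested on them. Both Crem probes shown end in a stop codon (capitals) in an open reading frame, at rn4 chr17:62835959-62836018 and chr17:62836355-62836414 on the plus strand. They stand 336 bases apart and have 39 of 60 positions in common. Crem transcripts are known to end in either of a pair of alternative exons that encode the DNA-binding domain. The Creb1 probe lies at chr9:63210434-63210493 and the Atf4 probe at chr7:118538840-118538899, both on the plus strand. The files pair these probes with a transcript but not with an exon.
Crem, probe A_64_P126493: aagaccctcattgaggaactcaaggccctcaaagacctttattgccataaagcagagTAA
Crem, probe A_64_P042283: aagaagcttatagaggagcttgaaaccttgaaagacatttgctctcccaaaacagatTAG
Creb1, probe A_64_P112246: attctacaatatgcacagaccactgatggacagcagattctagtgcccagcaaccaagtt
Atf4, probe A_42_P620762: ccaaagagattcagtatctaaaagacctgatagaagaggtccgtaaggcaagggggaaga

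**Figure D1:**
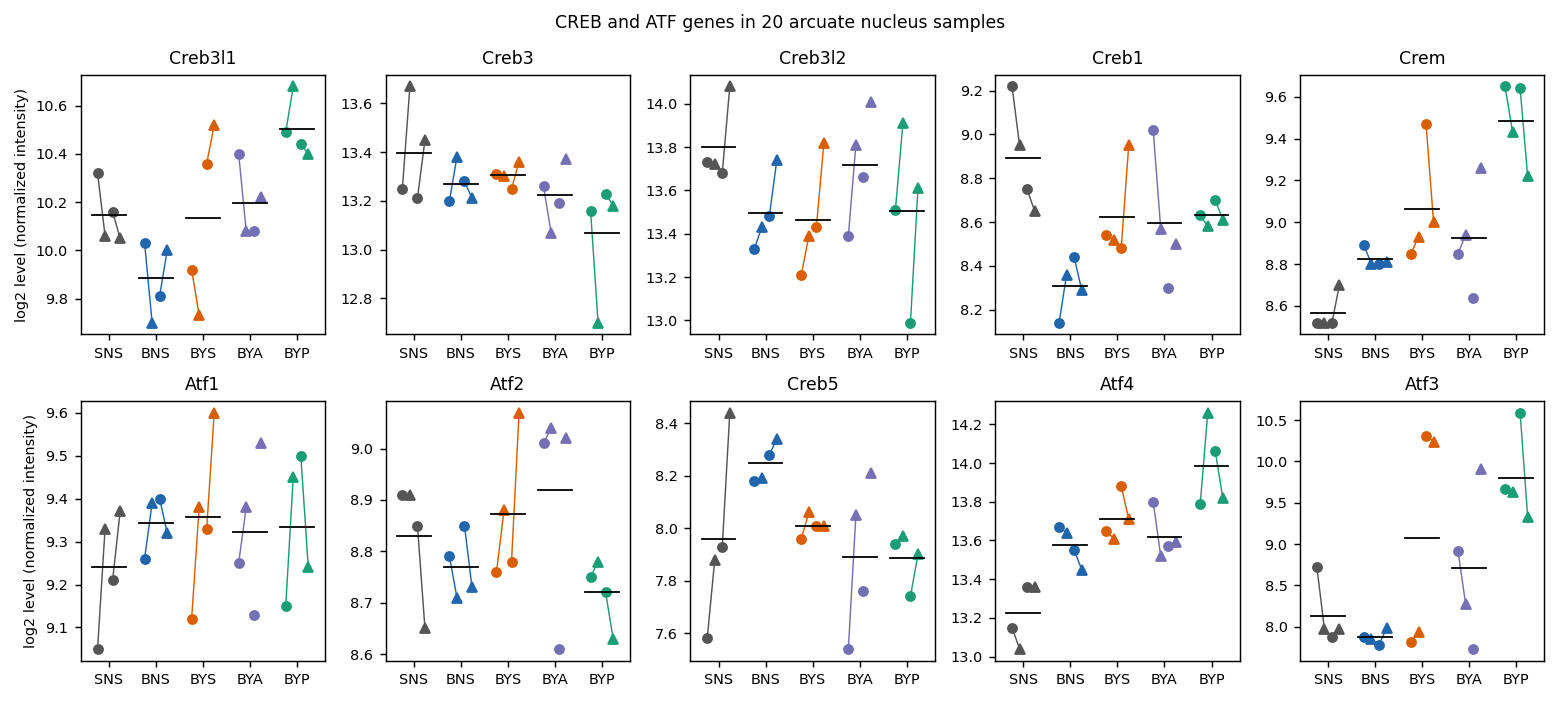
Log2 level (y axis) of each of the 10 genes by condition (x axis), with circles for Cy3, triangles for Cy5, a line joining samples that shared an array and a black bar at the mean of 4 samples. The Atf3 samples of BYS lie apart by array, at 7.81 and 7.94 and at 10.31 and 10.24, and the 4 BYP samples of Creb3l1 lie above the 4 BNS samples.

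Creb3l1, also called OASIS, encodes an endoplasmic reticulum-bound factor that controls secretory genes and, in vasopressin neurons, the vasopressin gene. Its levels were 10.03, 9.70, 9.81 and 10 in BNS and 10.49, 10.68, 10.44 and 10.40 in BYP. All BYP samples lay above all BNS samples, by 0.62 on average or 1.54-fold, which is the difference that chose the gene. The levels were 10.32, 10.06, 10.16 and 10.05 in SNS, 10.40, 10.08, 10.08 and 10.22 in BYA, and 9.92, 9.73, 10.36 and 10.52 in BYS. The BYS samples of 1 array thus lay among the BNS values, while on the other array BYS 4 lay among the BYP values and BYS 3 just below them.

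From the lowest mean to the highest, Creb3l1 was 9.88 ± 0.158 in BNS, 10.13 ± 0.37 in BYS, 10.15 ± 0.124 in SNS, 10.19 ± 0.151 in BYA and 10.50 ± 0.125 in BYP (mean ± SD, n = 4). Differences among BYS, SNS and BYA were smaller than the spread within them, and the BNS and BYS values also overlapped. In limma, the difference was 0.06 between BYA and BYS (SE 0.145, adjusted p = 0.951), −0.02 between BYS and SNS (adjusted p = 0.945) and 0.05 between BYA and SNS (adjusted p = 0.828). The differences of BYP from BYS and BYA, 0.37 and 0.31, were −0.02 and −0.01 when samples were scaled by their median instead of by quantiles, and the difference from BNS was then 0.46. It was 0.67 without background correction and 0.76 with the scanner software's processed signals. Leaving out both samples of 1 BYS array, here and below, was chosen after seeing the data. Without BYS 1 and 2 the difference of BYP from BYS was 0.06, without BYS 3 and 4 it was 0.68, and without BYA 3 that from BYA was 0.26.

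Both relatives of Creb3l1 showed no comparable order. Creb3, known as Luman, which like Creb3l1 is cut from the endoplasmic reticulum membrane, was 13.25, 13.67, 13.21 and 13.45 in SNS and 13.16, 12.70, 13.23 and 13.18 in BYP. These groups overlap, and Creb3 was called lower in BYP than in SNS, by −0.33 (SE 0.119, adjusted p = 0.0466, limma). This call rested on single samples, since the difference was −0.19 without BYP 2 (adjusted p = 0.175) and −0.24 without SNS 2 (adjusted p = 0.161), and it was lost in 13 of the 20 fits that left out 1 sample. With the processed signals the difference was −0.01. Over all 34 alternatives of the processing and of the samples it ran from −0.91 to −0.01, and it was called in 13 of them. Creb3l2, which drives the expression of secretory coat genes, ranged from 12.99 to 14.08 over all 20 samples. In limma it differed from SNS by −0.31 in BNS (adjusted p = 0.101) and −0.34 in BYS (adjusted p = 0.0736), and no comparison was called. Some alternatives did call it lower than in SNS. These were median scaling and the slide as a random block for BNS, and the fit without BYS 3 and 4 for BYS, among others.

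Creb1, the factor for which the family is named, was lower in BNS than in SNS rats. Its levels were 9.22, 8.95, 8.75 and 8.65 in SNS and 8.14, 8.36, 8.44 and 8.29 in BNS. Every BNS sample lay below every SNS sample. Of the 17083 genes tested, 5351 did not overlap between these conditions, where genes with a missing value were not counted. The Creb1 difference was −0.59 (SE 0.148, 0.666-fold, adjusted p = 0.00739, limma). It was called in all 20 fits that left out 1 sample, where it ran from −0.67 to −0.47. It was −0.51 with median scaling (adjusted p = 0.107) and −0.79 with the processed signals (adjusted p = 0.0501).

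In the rats with spasms the means of Creb1 lay between those of these groups, with samples at 8.54, 8.52, 8.48 and 8.95 in BYS, 9.02, 8.57, 8.30 and 8.50 in BYA and 8.63, 8.58, 8.70 and 8.61 in BYP. The 4 BYS samples were above the 4 BNS samples, by 0.32 (SE 0.148), which did not pass after adjustment (adjusted p = 0.716, 95% confidence interval 0 to 0.63). In comparison with SNS, Creb1 differed by −0.27 in BYS, −0.30 in BYA and −0.27 in BYP, with adjusted p from 0.133 to 0.184. Without BYA 1, it was called lower in BYA than in SNS.

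Crem encodes both activators and, from an internal promoter, the short repressor ICER, which cAMP induces. The gene's level, the mean of 3 probes without a missing value, was 8.52, 8.52, 8.52 and 8.70 in SNS, 8.89, 8.80, 8.80 and 8.81 in BNS, and 9.65, 9.43, 9.64 and 9.22 in BYP. In this mean the 3 groups did not overlap, with SNS lowest and BYP highest. With each of the 3 probes alone, SNS and BNS overlapped. From SNS 1 and 2 to SNS 3 and 4, A_64_P126493 fell while the others rose. Of the 17083 genes tested, 5351 did not overlap between BNS and SNS and 4392 between BYP and SNS. Crem was higher in BYP than in SNS by 0.92 (SE 0.141, 1.89-fold, adjusted p = 0.000128, limma), and this call held in all 38 alternatives of the processing and of the samples in which it was recomputed, including the fit with the array as a random block (adjusted p = 0.00173).

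In BYS Crem was 8.85, 8.93, 9.47 and 9, which is higher than in SNS by 0.50 (SE 0.141, adjusted p = 0.0145). Without BYS 3 this difference was 0.36 and no longer called (adjusted p = 0.0648), and with the array as a random block its adjusted p was 0.0671. In BYA it was 8.85, 8.94, 8.64 and 9.26, and the difference from SNS of 0.36 was not called (adjusted p = 0.0598). It was called without BYA 3 and without BYS 3. The difference of 0.26 between BNS and SNS had an adjusted p of 0.165. BYP differed from BYS by 0.42 (adjusted p = 0.394) and from BYA by 0.56 (SE 0.141, adjusted p = 0.0948, and 0.46 without BYA 3), so neither passed.

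Crem was also read probe by probe. The probe A_64_P126493 printed above was 8.92, 8.79, 7.98 and 8.16 in SNS and 9.71, 9.47, 9.57 and 9.04 in BYP. The probe A_64_P042283 was 9.21, 9.24, 9.75 and 9.94 in SNS and 10.54, 10.35, 10.72 and 10.23 in BYP. With both probes the 4 BYP samples lay above the 4 SNS samples, by 0.98 (SE 0.22, adjusted p = 0.00317) and 0.92 (SE 0.193, adjusted p = 0.00187), in a fit of all probes. The remaining probe of the gene's mean, A_44_P988767, was 7.42, 7.51, 7.82 and 8.01 in SNS and 8.72, 8.47, 8.63 and 8.39 in BYP. In the same limma fit it was higher in BYP by 0.86 (SE 0.154, adjusted p = 0.000516). It was well above background in only 1 of the 4 SNS samples.

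A further Crem probe, A_64_P042278, at rn4 chr17:62836427-62836486, just beyond A_64_P042283, was missing in SNS 4 and did not enter the gene's mean. It was higher by 1.02 in BNS (adjusted p = 0.00204), by 1.23 in BYS (adjusted p = 0.000445), by 1.33 in BYA (adjusted p = 0.000189) and by 1.48 in BYP (adjusted p = 7.95e-05) than in SNS. It was called in all 4 of these comparisons, whereas A_64_P042283 was called only in that of BYP. The fifth probe, A_43_P11922, which the files pair with the transcript NM_017334, was well above background in 2 of the 20 samples, both of BYS, and was not kept.

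**Figure D2:**
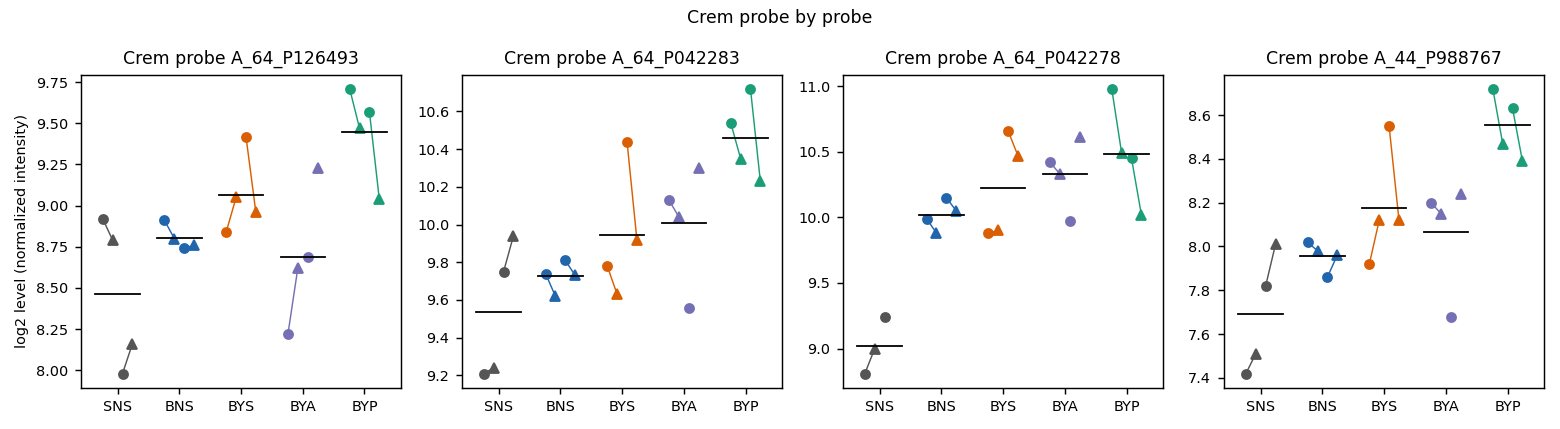
Log2 level (y axis) of the 4 Crem probes kept, by condition (x axis), with circles for Cy3, triangles for Cy5, lines joining samples of 1 array and bars at the mean. With every probe the BYP mean is the highest and the SNS mean the lowest, and with A_64_P042278, where SNS 4 is missing, all samples of the other conditions lie above those of SNS.

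The promoters of Crem were searched because the gene is known to respond to cAMP response elements. RefSeq promoters (build GRCr8, 250 bases before to 50 after the start) were matched for 8 of the 10 genes. The full element, TGACGTCA, was found in 1.83% of all 33469 promoters, and among the genes examined only in Crem, in 2 of its 3 promoters. These 2 are labelled below as upstream and downstream relative to each other. The third, at chr17:58933816-58934115, lies upstream of both and held no full element. The core element, TGACG, part of the full one, was in 21.2% of all promoters on either strand and in those of 4 genes, Creb1, Creb3l2, Atf4 and Crem. The matches of the full element before the start lay 56 to 49 and 35 to 28 bases upstream, at chr17:58984730-58984759 and chr17:58985444-58985473 on the plus strand, shown with the element in capitals.
Crem, upstream promoter: tgataggctggTGACGTCActgtgatgtca
Crem, downstream promoter: gttcaaagggcTGACGTCAttacatttcct

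Atf1, a close relative of Creb1, stayed within 9.05 to 9.60 in all 20 samples and was called in no comparison. One of its probes has coordinates that span from 138979465 to 138995362 on rn4 chromosome 7 and so cross an intron. On its own this probe was called higher in BYS than in SNS, by 0.33 (adjusted p = 0.0435). It was well above background in only 1 of the 4 SNS samples. The other Atf1 probe, well above background in all 20 samples, differed by −0.10 (adjusted p = 0.553). Atf2, which pairs with Jun proteins, ranged from 8.61 to 9.07 and was not called as a gene, although its probe A_64_P120589 was lower in BYP than in SNS by −0.26 (adjusted p = 0.0495). Creb5, a relative of Atf2, was 8.18, 8.19, 8.28 and 8.34 in BNS and 7.96, 8.06, 8.01 and 8.01 in BYS. These groups did not overlap, and the difference of −0.24 was not called (adjusted p = 0.776). Its kept probe was well above background in only 14 of the 20 samples.

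Atf4, the effector of the integrated stress response, was called higher in every betamethasone-exposed condition than in SNS, a direction that turned in BNS with median scaling. Its levels were 13.15, 13.04, 13.36 and 13.36 in SNS, 13.67, 13.64, 13.55 and 13.45 in BNS, 13.65, 13.61, 13.88 and 13.71 in BYS, 13.80, 13.52, 13.57 and 13.59 in BYA, and 13.79, 14.26, 14.06 and 13.82 in BYP. All 16 exposed samples lay above all 4 SNS samples. The difference from SNS was 0.35 in BNS (SE 0.113, adjusted p = 0.0273), 0.48 in BYS (adjusted p = 0.00438), 0.39 in BYA (adjusted p = 0.0146) and 0.75 in BYP (1.69-fold, adjusted p = 0.000104, limma). These comparisons share the SNS samples.

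The difference between BNS and SNS was −0.10 when samples were scaled by their median, and none of the 4 differences was called with that scaling. With median scaling the median of all genes was −0.138 between BNS and SNS and −0.106 between BYP and SNS, against −0.044 in both with quantile scaling, and the Atf4 difference between BYP and SNS was 0.19. With the array as a random block Atf4 was not called in BNS (adjusted p = 0.106) or BYA (adjusted p = 0.059) and was called in BYS (adjusted p = 0.0312) and BYP (adjusted p = 0.0017). In BNS the call was lost without SNS 1, SNS 2, BNS 1 or BNS 2 (0.29 to 0.32), and in BYA without SNS 2 (0.33, adjusted p = 0.0508) but not without BYA 3. In BYS it was lost without BYS 3 and 4 together (0.40, adjusted p = 0.0599). BYP was above BYS by 0.27 (adjusted p = 0.522) and above BYA by 0.37 (SE 0.113, adjusted p = 0.17, and 0.34 without BYA 3), neither of which passed. With median scaling both directions turned, to −0.29 and −0.12.

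Atf3, the stress-induced repressor, varied most among the 10 genes. It was 8.72, 7.97, 7.87 and 7.97 in SNS, 7.88, 7.85, 7.78 and 7.98 in BNS, 7.81, 7.94, 10.31 and 10.24 in BYS, 8.91, 8.28, 7.73 and 9.91 in BYA, and 9.66, 9.63, 10.59 and 9.33 in BYP. The rats without spasms stayed low. BYP was high in all 4 samples, BYS was high in the 2 samples of 1 array and low in those of the other, and BYA was spread over the whole range, with BYA 3 lowest. It was well above background in 17 samples, but in only 2 of SNS.

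The difference of BYP from SNS was 1.67 (SE 0.524, 3.19-fold, adjusted p = 0.0237, limma). It was called in 16 of the 20 fits that left out 1 sample and lost without SNS 2, SNS 3, SNS 4 or BYP 3, with 1.39 and an adjusted p of 0.078 in the last case, and also with the array as a random block (adjusted p = 0.0569) and with median scaling (adjusted p = 0.0633). The difference of BYS from BNS was 1.2 (SE 0.524, 95% confidence interval 0.1 to 2.3, adjusted p = 0.668). Leaving out the low BYS 1 and 2, chosen after seeing the values, gave a call, and leaving out the high BYS 3 and 4 gave none. The levels above fix both outcomes, so nothing is read from them. BYP differed from BYA by 1.1 (95% confidence interval 0 to 2.2, adjusted p = 0.368, and 0.75 without BYA 3) and from BYS by 0.73 (−0.37 to 1.83, adjusted p = 0.779). The last difference rested on BYS 1 and BYS 2, being 0.27 without the first, 0.33 without the second and −0.47 without both.

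**Figure D3:**
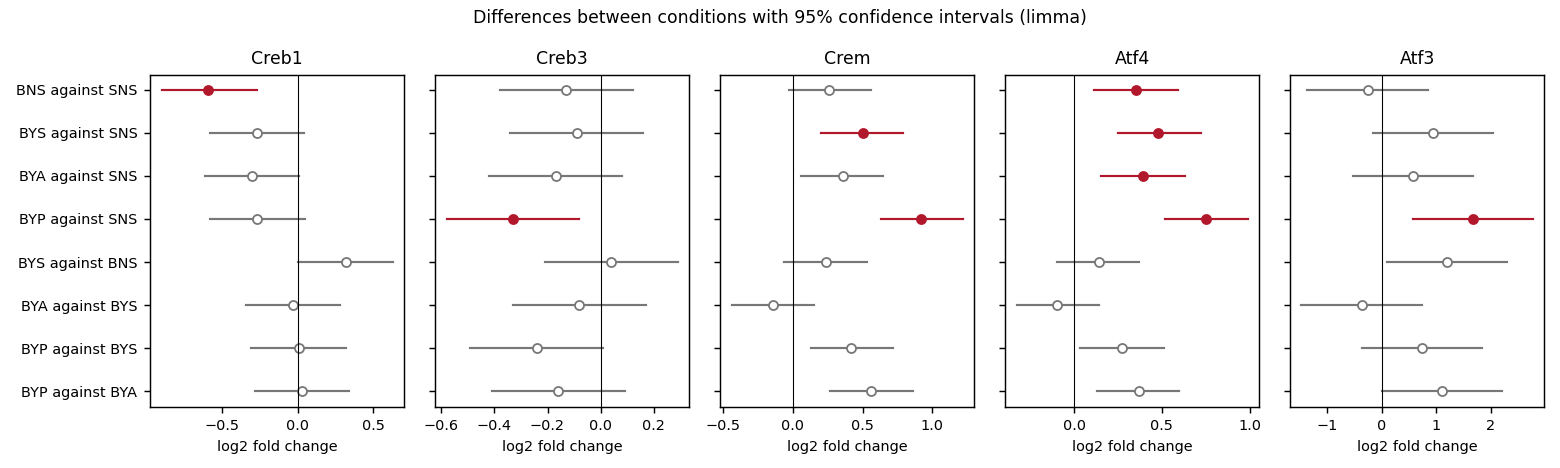
Log2 fold change (x axis) of 5 genes in 8 comparisons (y axis), first condition over second, with 95% confidence intervals from limma. Filled red points were called at an adjusted p under 0.05, all of them in comparisons with SNS, and the widest intervals are those of Atf3.

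The calls were read against all genes. Of the 9 genes tested, 2 were called between BNS and SNS, where 28.6% of all genes were called. Of 10 genes, 2 were called between BYS and SNS and 1 between BYA and SNS, against 27.1% and 31.3% of all genes. Of 9 genes, 4 were called between BYP and SNS, against 28.9%. Except in BYP, these counts are no larger than the shares of all genes would give, and nothing particular to the family is read from any of them. None of the 9 or 10 genes was called between BYS and BNS (0.0293% of all genes called), BYA and BYS (0%), BYP and BYS (0.0351%), BYP and BYA (0.158%) or BYA and BNS (0.117%). At an unadjusted p under 0.05 in limma, Creb1 and Atf3 passed between BYS and BNS, Atf4 and Crem between BYP and BYS and between BYP and BYA, Creb5 between BYA and BNS, and none between BYA and BYS. Of all genes, 6.92% passed at that level between BYS and BNS, 8.49% between BYP and BYS, 13.6% between BYP and BYA, 13.1% between BYA and BNS and 8.07% between BYA and BYS, and over the alternatives with adjustment 0 to 123 genes were called there.

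Between BYP and BNS, the contrast that chose Creb3l1, 6 of the 10 genes did not overlap between groups, against 13.2% of all genes, a count from which nothing is read. Beside Creb3l1, the 4 BYP samples were above the 4 BNS samples for Creb1 by 0.32, Atf3 by 1.93, Atf4 by 0.41 and Crem by 0.66, and below them for Creb5 by −0.37. The other genes differed by −0.20 (Creb3), −0.05 (Atf2), −0.01 (Atf1) and 0.01 (Creb3l2).

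In the comparisons with SNS, other measures moved too. The summed level of 5 choroid plexus markers was 11.92 to 12.86 in SNS, 11.26 to 11.77 in BNS and 11.19 to 11.78 in BYP. Only 2 of the 5, Ttr and Folr1, were kept, and neither was called between BNS or BYP and SNS. The means of these 2 were 11.01 and 10.87 in SNS and 9.88 and 10.40 in BNS. Those of the dimmer Kl, Clic6 and Kcnj13 were 7.76, 7.46 and 7.36 in SNS and 7.72, 7.79 and 7.98 in BNS. Of the genes of meninges and fibroblasts, 3 of 6 were called higher in BNS than in SNS, namely Igf2 by 1.28, Col3a1 by 1.05 and Dcn by 0.61, with summed levels of 13.56 to 14.53 in SNS and 13.68 to 15.07 in BNS, and 1 of 6 in BYP. Of the red blood cell genes, 2 of 3 were called higher in BNS than in SNS. Of the microglial genes 1 of 5 was called lower, with summed levels of 13.51 to 13.74 in SNS and 13.16 to 13.52 in BNS. In the same comparison 1 of 2 magnocellular and 1 of 4 thalamic genes were called lower, and 1 of 5 genes of ependyma and tanycytes higher. Of all genes, 28.6% were called between BNS and SNS and 28.9% between BYP and SNS. Among all genes called against SNS, 53% were higher in BNS and 53.4% in BYP, and 29.8% and 32.3% with median scaling. Signals were brighter in BNS than in SNS, with median ratios to background of 14 to 19.8 and of 5.66 to 11.3. The part of these in the differences from SNS was not tested, and fewer cells of a type cannot be told apart from less RNA per cell.

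The 5 genes whose pattern was most like that of Creb3l1 over the 20 samples, after removal of the dye effect, were Gadd45b (Pearson's r = 0.88), Cdkn1a (0.86), Nab2 (0.86), Ccl4 (0.85) and Arc (0.84). Gadd45b and Cdkn1a are growth arrest genes, Nab2 restrains the Egr factors, Ccl4 is a chemokine and Arc a gene of active synapses. Among the CREB and ATF genes, Atf3 was nearest to Creb3l1 with r = 0.81, followed by Crem (0.57) and Atf4 (0.50), and Crem correlated with Atf4 and Atf3 at 0.82 and 0.81. These are descriptions over samples that share arrays, slides and conditions. They include the BYP and BNS samples whose difference chose Creb3l1, so genes that differ between those conditions were favoured.

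Several of these genes split in BYS as Atf3 did. Gadd45b was 8.66, 8.36, 10.35 and 10.35 in BYS, 10.24, 9.60, 8.35 and 9.73 in BYA, and 9.87 to 10.91 in BYP, against 8.62 to 8.82 in BNS. Ccl4 was 7.53, 7.33, 9.60 and 9.67 in BYS, 9.53, 8.87, 8.30 and 10.25 in BYA, and 9.68 to 10.82 in BYP, against 7.36 to 7.46 in BNS. In both genes BYS 1 and BYS 2 lay near BNS. The other BYS samples lay within the BYP range for Gadd45b and below all BYP samples for Ccl4. BYA 3, the lowest BYA sample, was below BNS for Gadd45b and above it for Ccl4. Fos, the immediate early gene that Creb1 is known to activate, was 8.86, 9.16, 11.04 and 10.47 in BYS and 10.67, 10.47, 8.76 and 11.03 in BYA. Its mean was 10.58 in BYP, and the difference between BYS and BNS, 1.02 (SE 0.444), was not called (adjusted p = 0.671). Against SNS it was called, higher by 1.59 in BYP (adjusted p = 0.0128) and by 1.24 in BYA (adjusted p = 0.0414).

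**Figure D4:**
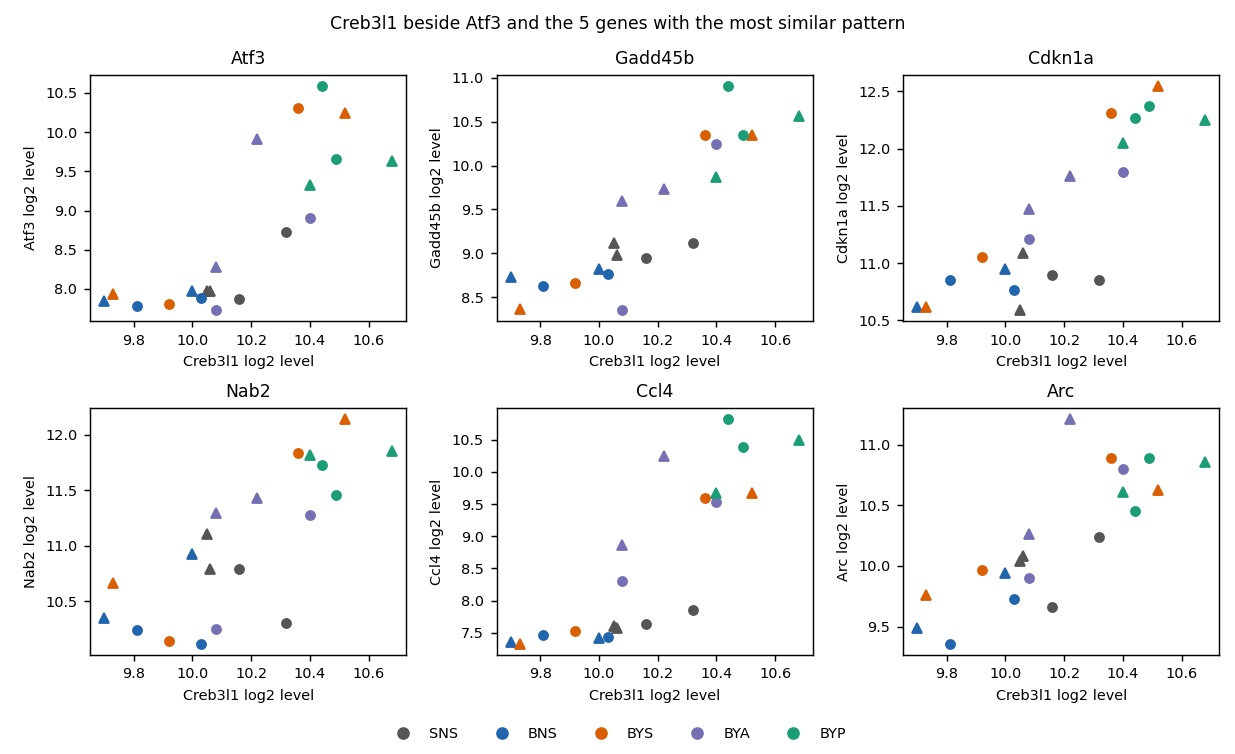
Log2 level of Atf3 and of the 5 genes most like Creb3l1 (y axes) against that of Creb3l1 (x axes) in 20 samples, coloured by condition, with circles for Cy3 and triangles for Cy5. In every panel BYS falls into a low and a high pair, which were hybridized on different arrays.

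The genes that act on CREB were read as a list of 34 kinases and coactivators, of which 30 were measured. Between BNS and SNS 2 of them were called higher and 3 lower, where 28.6% of all genes were called. Prkaca, the catalytic subunit of the cAMP-dependent kinase, was higher by 0.70 (SE 0.102, adjusted p = 7.22e-05), at 0.44 to 0.75 in the other normalizations but not called with the processed signals (adjusted p = 0.0829), and its regulatory subunit Prkar1a by 0.52, which was 0.01 with median scaling. The coactivator Crtc1 was lower by −0.49 (adjusted p = 0.0038), as were the kinases Sik3 (−0.49) and Rps6ka2 (−0.39). With the array as a random block Prkaca and Crtc1 remained called, while Prkar1a, Sik3 and Rps6ka2 did not. Crtc1 was not called with median scaling (−0.32, adjusted p = 0.321) or with the processed signals (−0.23, adjusted p = 0.531). Crebbp, the coactivator that binds phosphorylated Creb1, was too dim to be kept.

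Of 29 target genes of CREB, 28 were measured. Between BNS and SNS, where 28.6% of all genes were called, 1 was, Per1, a clock gene, lower by −0.46 (adjusted p = 0.0159). Per1 lost its call with median scaling (−0.26, adjusted p = 0.591), with the processed signals (adjusted p = 0.0501) and with the array as a random block (adjusted p = 0.0626). For the 28 targets the median difference was −0.07, against −0.04 for all genes. In BYP 8 were called higher than in SNS and 1 lower, where 28.9% of all genes were called, and these counts were 2 and 1 with median scaling and 4 and 0 with the processed signals. Between BYS and BNS none was called, but 27 of the 28 differences were above 0, with a median of 0.18, against 50.3% of all genes and a median of 0. For BYS 1 and 2 alone 21 of the 28 lay above the BNS mean (median 0.09, and 54.9% of all genes), and for BYS 3 and 4 alone 24 did (median 0.27, and 47.5% of all genes). The count of 27 was noticed in the data and is a description of the list. In the same comparison 17 of the 30 kinases and coactivators were above 0. So were, in the lists described below, 21 of 28 genes around Atf4, 18 of 22 around the Creb3 branch and 5 of 7 other genes of the family.

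Around Atf4, 29 genes of the eIF2alpha response were listed and 28 measured. Between BNS and SNS 7 were called higher and 2 lower, where 28.6% of all genes were called, and these counts were 3 and 1 with median scaling and 5 and 0 with the processed signals. Herpud1, which serves the removal of misfolded proteins, was higher by 1.68 (SE 0.136, 3.21-fold, adjusted p = 2.03e-07), the eIF2alpha kinase Eif2ak4 by 1.15 (adjusted p = 1.04e-05) and Ddit3, the stress factor CHOP, by 1.02 (adjusted p = 2.68e-05). These 3 were higher in every normalization, and Ddit3 missed the threshold with median scaling (0.67, adjusted p = 0.0582). The subunits Ppp1r15a and Ppp1r15b of the phosphatase that reverses the response were both lower by −0.48, and lost their call with the array as a random block. Eif2ak3, the kinase known as PERK, differed by −0.01 (adjusted p = 0.925).

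Around the Creb3 branch, 23 genes of processing, folding and secretion were listed and 22 measured. Between BNS and SNS 4 were called higher, among them Pdia6, a disulfide isomerase (0.77, adjusted p = 0.00263), the stress factor Xbp1 (0.63, adjusted p = 0.000821, but −0.04 with the processed signals) and the secreted protein Manf (0.55, adjusted p = 0.022). Sec24d, a coat protein of secretory vesicles, was called lower (−0.52, adjusted p = 0.0406). Of all genes, 28.6% were called between these conditions. With median scaling no gene of this list was called, and with the processed signals only Ern1, a sensor of unfolded proteins, was (0.44, adjusted p = 0.0352). With the array as a random block Manf (adjusted p = 0.0859) and Sec24d (adjusted p = 0.0921) were not called. The protease Mbtps1, which makes the first cut of Creb3-type factors, differed by −0.15 (adjusted p = 0.245), and Mbtps2 was too dim to be kept. Hspa5, the chaperone BiP, differed by 0.74 (SE 0.34, adjusted p = 0.108) and was called higher in BYP than in SNS, by 1.08 (adjusted p = 0.024). That call was lost with median scaling (0.53, adjusted p = 0.326), with the processed signals (0.56, adjusted p = 0.253) and with the array as a random block (adjusted p = 0.0693).

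Among the other genes of the family, 7 of 13 were measured. Between BNS and SNS 2 of the 7 were called, where 28.6% of all genes were. Atf6b, a further membrane-bound factor, was lower in BNS than in SNS by −0.80 (adjusted p = 0.0137), and Jdp2, a repressor of the Jun type, by −0.44 (adjusted p = 0.00558). Atf6b lost its call with the array as a random block (adjusted p = 0.0717) and Jdp2 kept it, but not with median scaling (−0.27, adjusted p = 0.372). In none of the 5 lists was a gene called between BYS and BNS, BYA and BYS, BYP and BYS or BYP and BYA in limma with quantile scaling. With median scaling, which called 2820 of all genes between BYP and BYS, genes were called there in all 5 lists, 1 to 3 higher and 0 to 3 lower in each.

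**Figure D5:**
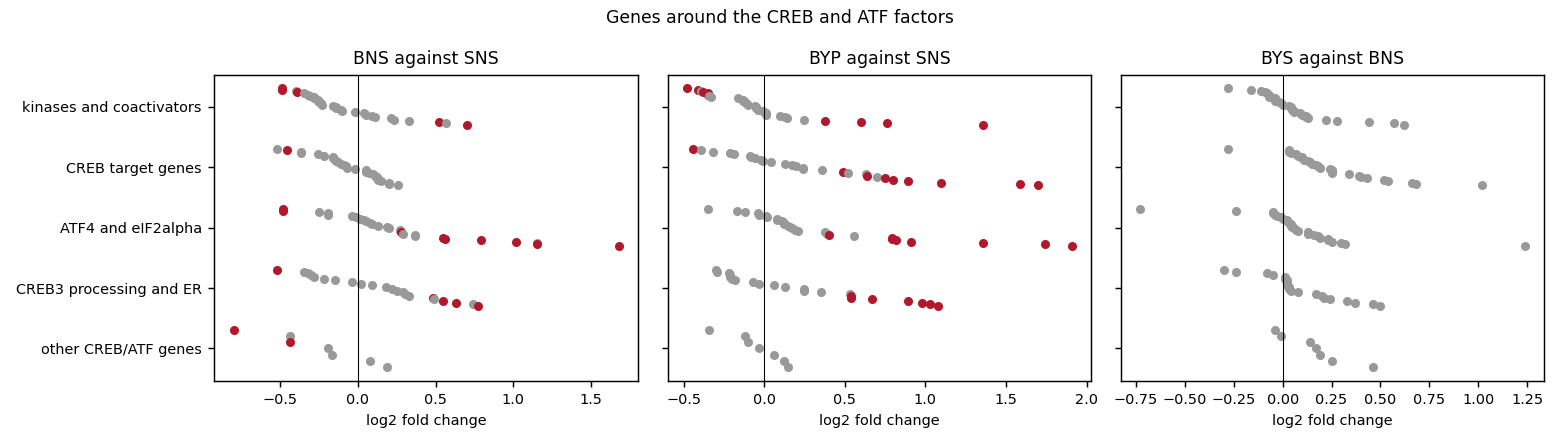
Log2 fold change (x axis) of the measured genes of 5 lists (y axis, genes of a list in order of size) in 3 comparisons, with genes called at an adjusted p under 0.05 in red. Calls appear in both comparisons with SNS and none between BYS and BNS, and the genes farthest to the right against SNS belong to the ATF4 and eIF2alpha list.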

How the data were processed

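RNA of 20 arcuate nuclei was hybridized with Cy3 or Cy5, and each channel was taken as 1 sample by its label. The authors deposited 1 scanner file per array (11 arrays, 6 slides). Per the file headers, the spot and background signals are raw intensities, intensities after the software's own background subtraction and dye normalization are held as processed signals, and the other columns used are 0 or 1 flags of each spot. The 82 columns of values of another series were not used. Intensities were corrected with limma's normexp (offset 50), put on the log2 scale and quantile normalized. Outlier spots (1.18%) were dropped and repeated spots averaged. Probes had to have 0.5 or more of their spots flagged as well above background throughout the 4 samples of some condition. Probes of a gene without missing values were averaged. Accessions of 18643 probes (61.4%) matched a RefSeq symbol.

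Conditions were compared with limma 3.58.1 (R 4.3.3, statmod 1.5.0) in a single fit over the 20 samples, dye included as covariate, two-sided, with Benjamini-Hochberg adjustment over all genes and a threshold of 0.05. The fit was tested on simulated data. Genes of the lists were named if called, up to 3 per direction, list and comparison, besides 9 fixed genes and the 5 most like Creb3l1. Members and lists were chosen with earlier results of these data known. The number of arrays limits the precision. Alternatives covered scaling, background, dye, array, slide and replicate blocks, filters, probes, tests and samples left out.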

Additional observations from a re-analysis of the deposited data

Results flagged for a closer look

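Within groups of 4 samples, 6 of the 50 combinations of a gene and a condition held a sample that stood apart from the others by Dixon's criterion, which chance meets in about 1 in 20 groups. Atf2 was 8.61 in BYA 3 against 9.01 in the nearest sample, Creb1 was 8.95 in BYS 4 against 8.54, and Creb3 was 12.70 in BYP 2 against 13.16. In SNS, Atf3 was 8.72 in SNS 1 against 7.97, Creb3l2 was 14.08 in SNS 4 against 13.73, and Crem was 8.70 in SNS 4 against 8.52. The BYA 3 channel is the one whose dye label and raw data name do not match.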

How the results depend on the processing

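With no call between conditions other than SNS, the counts of members called changed mostly against SNS. With median scaling 1 member was called between BNS and SNS, namely Creb3l2, lower, in place of Creb1 and Atf4. That scaling called 0 between BYS and SNS, 0 between BYA and SNS and 1 between BYP and BYS (Creb3). With the processed signals the counts were 0 for BNS, 1 for BYS and 0 for BYA against SNS. With the array as a random block (correlation 0.365) they were 1 for BNS, 1 for BYS, 0 for BYA and 2 for BYP against SNS. With the slide as a random block, whose correlation was −0.128, they were 5 for BNS and 2 for BYA against SNS, 1 for BYP against BYS and 2 for BYP against BYA. The methods' t-test after adjustment called 1 (Crem), 1 (Atf4) and 0 for BNS, BYS and BYA against SNS. Without adjustment it called 1 for BYS against BNS and 2 for BYP against BYA. The strict filter left 1 for BYS and 2 for BYP against SNS. Between BYA and SNS, the fit of only these groups called 0, and no background correction, the brightest probe, outlier spots kept and each probe on its own called 2. Chosen after seeing the data, leaving out BYS 1 and 2 called 1 between BYS and BNS (Atf3). Leaving out BYS 3 and 4, also chosen so, called 1 between BYS and SNS (Creb3l2, lower).

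Leaving out 1 sample gave 1 to 3 calls for BNS, 1 to 3 for BYS, 0 to 2 for BYA and 2 to 4 for BYP against SNS, and 0 elsewhere. Of the member differences that were called, only Atf4 between BNS and SNS reversed, at −0.10 with median scaling. Uncalled differences turned as well, with median scaling Atf4 to −0.29 between BYP and BYS and −0.12 between BYP and BYA, and without BYS 1 and 2 Atf3 to −0.47 between BYP and BYS. The causes were not tested.

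Same-numbered samples did not pair across conditions (mean correlation of deviations 0.0031, from −0.239 to 0.28). With the replicate number as a block, 2 members were called for BNS, 2 for BYS, 1 for BYA and 3 for BYP against SNS, and 0 elsewhere.

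Over these settings, samples left out and the unadjusted t-test apart, the number of all genes called was 0 to 174 between BYS and BNS, 0 to 123 between BYA and BYS, 0 to 2820 between BYP and BYS, 0 to 1024 between BYP and BYA, and 0 to 858 between BYA and BNS. Against SNS the ranges were 2342 to 8157 (BNS), 1447 to 7860 (BYS), 1222 to 7785 (BYA) and 1376 to 8135 (BYP).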
